A study of Mus musculus with 14 samples.

Results

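The unfolded protein response and the heat shock response were examined through 40 mouse genes, which were found by their symbols among the 24091 genes of the deposited count table. Of these, 28 belong to the unfolded protein response of the endoplasmic reticulum (ER) and 12 to the heat shock response of the cytosol and mitochondria. All 40 were listed, and 39 passed the filter on low counts that left 12248 genes for testing. The gene that did not pass, Hspa1a, is described by its reads.

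The counts came from T cells sorted from the spleen of mice with chronic myeloid leukemia (CML), 200000 cells per sample and 1 library per mouse. There were 8 Mir142+/+BCR-ABL mice, termed chronic phase (CP) CML, and 6 Mir142-/-BCR-ABL mice, termed blast crisis (BC) CML. The comparison addressed how T cells differ when the microRNA miR-142 is lost in leukemic mice. Both groups carried the SCLtTA/BCR-ABL transgene, in which a driver active in blood stem and progenitor cells switches BCR-ABL on once tetracycline is withdrawn, here for 3 weeks. The mice were C57Bl/6j, male and female, and 6 to 10 weeks old. Mir142 was deleted in all cells, so the T cells, their leukemic neighbours and the spleen around them all differed in genotype. Leukemia-free mice were not analysed here. The names of the mice begin with a different number in each group, and whatever that number stands for cannot be told apart from genotype. The name of the mouse of BC CML replicate 5 ends in letters (RP) that the sources used here do not explain.

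The unfolded protein response is set off when unfolded proteins build up in the ER. The sensors IRE1 (Ern1), PERK (Eif2ak3) and ATF6 then raise the transcription factors XBP1, ATF4 and CHOP (Ddit3), which increase chaperones, disulfide isomerases and the machinery that pulls misfolded proteins out for degradation. The heat shock response is run by HSF1, which drives the HSP70, HSP90 and HSP110 chaperones and their co-chaperones when proteins unfold in the cytosol. In T cells both are known to be engaged on activation, when protein synthesis and secretion increase.

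The deleted gene gives rise to a pair of mature microRNAs, shown here in RefSeq sequence because their seeds were searched for in the 3′UTRs of the 40 genes. Capitals mark the seed, bases 2 to 8, and both lie on the plus strand of chromosome 11 in GRCm38.p6, which shares its coordinates with mm10.
mmu-miR-142a-5p: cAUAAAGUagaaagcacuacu
mmu-miR-142a-3p: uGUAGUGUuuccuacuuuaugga

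An 8mer is a match to the 7 bases of the seed followed by an A, which makes 8 bases. In the longest 3′UTR of each gene in the GENCODE vM21 annotation of mm10, 4 of the 40 genes held an 8mer, in each case for miR-142a-5p, beside 7.99% of the 11509 tested genes with a 3′UTR that held one for either arm. A shorter 7-base match or an 8mer was found in 12 of the 40, beside 30.7% of the tested genes. The 4 sites with an 8mer are printed with 11 bases on either side, the match in capitals, since they are the strongest matches among these genes.
Canx, chr11:50294356-50294363, minus strand: gttttgtgcctACTTTATAttcacccaggc
Pdia3, chr2:121437719-121437726, plus strand: ccaaatgcaccACTTTATAaaaggactctt
Herpud1, chr8:94395185-94395192, plus strand: ctaagtgtactACTTTATAtaatcagtgaa
Dnaja1, chr4:40735431-40735438, plus strand: ccctgaacctgACTTTATAaggaagtccca

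The promoter windows, 250 bases before to 50 after the transcription start, were matched in RefSeq (GRCm38.p6) for 33 of the 40 genes. The ER stress element, to which ATF6 binds with the factor NF-Y, was searched on both strands as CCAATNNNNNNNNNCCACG. It was present in 8 of the 25 unfolded protein response genes with a window and in 0 of the 8 heat shock genes, beside 17 of 9548 tested genes (0.178%) and 37 of all 27025 genes (0.137%). The 17 are these 8 genes and 9 others, and the 37 are these 8 and 29 others. The heat shock element was searched as 3 alternating GAA and TTC blocks with 2 free bases between them and was present in 3 of the 8 heat shock genes, Hsph1, Hspd1 and Hspe1, beside 0.566% of tested genes. The ATF4 composite element TGATGNAAT and the XBP1 element TGACGTGG were present in 0 of the 33 windows. The windows of the main ER chaperones Hspa5, Hsp90b1 and Calr, of Hspe1, and of Bag3, which had the lowest adjusted p-value of the 40 genes, are printed with any element in capitals.
Hspa5, chr2:34771840-34772139, plus strand: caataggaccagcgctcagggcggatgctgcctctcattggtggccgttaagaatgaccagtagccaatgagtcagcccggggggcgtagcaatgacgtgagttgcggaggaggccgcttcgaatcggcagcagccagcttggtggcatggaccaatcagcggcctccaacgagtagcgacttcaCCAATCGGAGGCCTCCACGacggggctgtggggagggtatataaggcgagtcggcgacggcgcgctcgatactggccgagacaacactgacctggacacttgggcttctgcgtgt
Hsp90b1, chr10:86705395-86705694, minus strand: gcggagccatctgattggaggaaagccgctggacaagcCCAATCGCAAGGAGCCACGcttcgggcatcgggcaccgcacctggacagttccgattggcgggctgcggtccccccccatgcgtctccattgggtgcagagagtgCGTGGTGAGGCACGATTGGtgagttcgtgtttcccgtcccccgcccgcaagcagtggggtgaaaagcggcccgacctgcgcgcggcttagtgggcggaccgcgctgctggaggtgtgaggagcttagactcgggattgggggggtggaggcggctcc
Calr, chr8:84846882-84847181, minus strand: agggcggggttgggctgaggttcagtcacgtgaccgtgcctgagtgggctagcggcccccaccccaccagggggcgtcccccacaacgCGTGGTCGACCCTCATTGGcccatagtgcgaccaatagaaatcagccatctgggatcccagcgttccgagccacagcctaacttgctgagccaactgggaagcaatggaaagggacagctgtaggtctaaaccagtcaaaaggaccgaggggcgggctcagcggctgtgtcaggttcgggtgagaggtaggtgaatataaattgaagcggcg
Hspe1, chr1:55087898-55088197, plus strand: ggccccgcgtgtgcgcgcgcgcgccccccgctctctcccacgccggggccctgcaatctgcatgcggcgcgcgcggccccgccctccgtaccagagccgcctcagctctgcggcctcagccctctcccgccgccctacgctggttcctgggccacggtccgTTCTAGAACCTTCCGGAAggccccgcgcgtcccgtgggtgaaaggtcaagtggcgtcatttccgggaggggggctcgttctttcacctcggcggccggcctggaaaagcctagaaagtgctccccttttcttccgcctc
Bag3, chr7:128523333-128523632, plus strand: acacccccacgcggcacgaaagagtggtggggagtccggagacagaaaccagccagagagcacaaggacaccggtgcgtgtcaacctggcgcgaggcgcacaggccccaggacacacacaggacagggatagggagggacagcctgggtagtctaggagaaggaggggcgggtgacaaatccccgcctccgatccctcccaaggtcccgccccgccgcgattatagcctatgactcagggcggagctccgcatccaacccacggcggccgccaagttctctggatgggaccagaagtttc

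Hsp90b1 held the ER stress element at 2 places, on opposite strands. Hspd1 and Hspe1 are transcribed away from each other, and the heat shock elements of Hspe1 lie in a stretch that its window shares with a window of Hspd1. No match in a window says only that these letters were not there.

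The libraries held between 15703702 and 19914531 reads. Mir142 had 302 to 650 reads in the CP CML libraries and 0 in each BC CML library, so every library matched the genotype of its label. The T cell genes Cd3d, Cd3e, Cd3g and Lck were present in all libraries, and the summed level of 12 T cell identity genes was 4421 to 5063 CPM (reads scaled to a common library size) in CP CML and 5463 to 5760 in BC CML. Much of this rise was in Cd8a, which marks CD8 T cells, at a mean of 689 CPM in CP CML and 1263 CPM in BC CML without overlap (adjusted p = 2.38e-08). Cd8b1, the other CD8 chain, had 436 and 457 CPM (adjusted p = 0.352). Cd4 was lower, at 404 and 243 CPM without overlap (adjusted p = 4.98e-06), and so was the receptor subunit Cd247, at 315 and 252 CPM (adjusted p = 2.51e-06). These were the 2 lower of the 12 genes, and 6 were higher, beside 32.7% and 32.6% of all genes. Cd3g was among the higher genes, at 452 and 683 CPM without overlap (adjusted p = 1.68e-10). Genes of other cells were present at lower levels and moved too. The summed level of 15 neutrophil and monocyte genes was 71.2 to 732 CPM in CP CML and 856 to 2270 CPM in BC CML, and that of 11 B cell genes was 74.7 to 223 and 135 to 672 CPM. In a bulk sample, fewer cells of a type and less RNA per cell cannot be told apart.

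The ER arm was higher in the T cells of BC CML mice. Of its 28 genes, 23 rose, 2 fell (Ppp1r15a and Edem1) and 3 did not pass the test (Atf4, Trib3 and Dnajb9), at an adjusted p-value below 0.05 in edgeR's quasi-likelihood test. The background was high. Among all 12248 genes tested, 65.2% were called, 32.6% higher and 32.7% lower. The ER genes had a median log2 fold change of 0.38, BC CML minus CP CML, beside -0.01 over all genes. The groups did not overlap in 10 of the 28, beside 36.9% of all genes, a share close to that background.

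The heat shock arm did not show this. Of the 11 genes tested, 2 rose (Hspa1b and Bag3), 1 fell (Hspe1) and 8 did not pass the test, and the median log2 fold change was 0.18. Hspa1b passed the filter only through the BC CML libraries, and without it 1 of 10 was higher and 1 lower, with a median of 0.17. The groups did not overlap in 2 of the 11, beside 36.9% of all genes. The calls came to 27.3% of the 11, beside 65.2% of all genes. Of all 39 genes tested, 25 were higher, 3 were lower and 11 were not called. The called share was 71.8%, near that background. Hspa1b is among the 25, and so is Atf3, which also passed the filter only through BC CML. The difference between the arms was not tested.

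**Figure D1:**
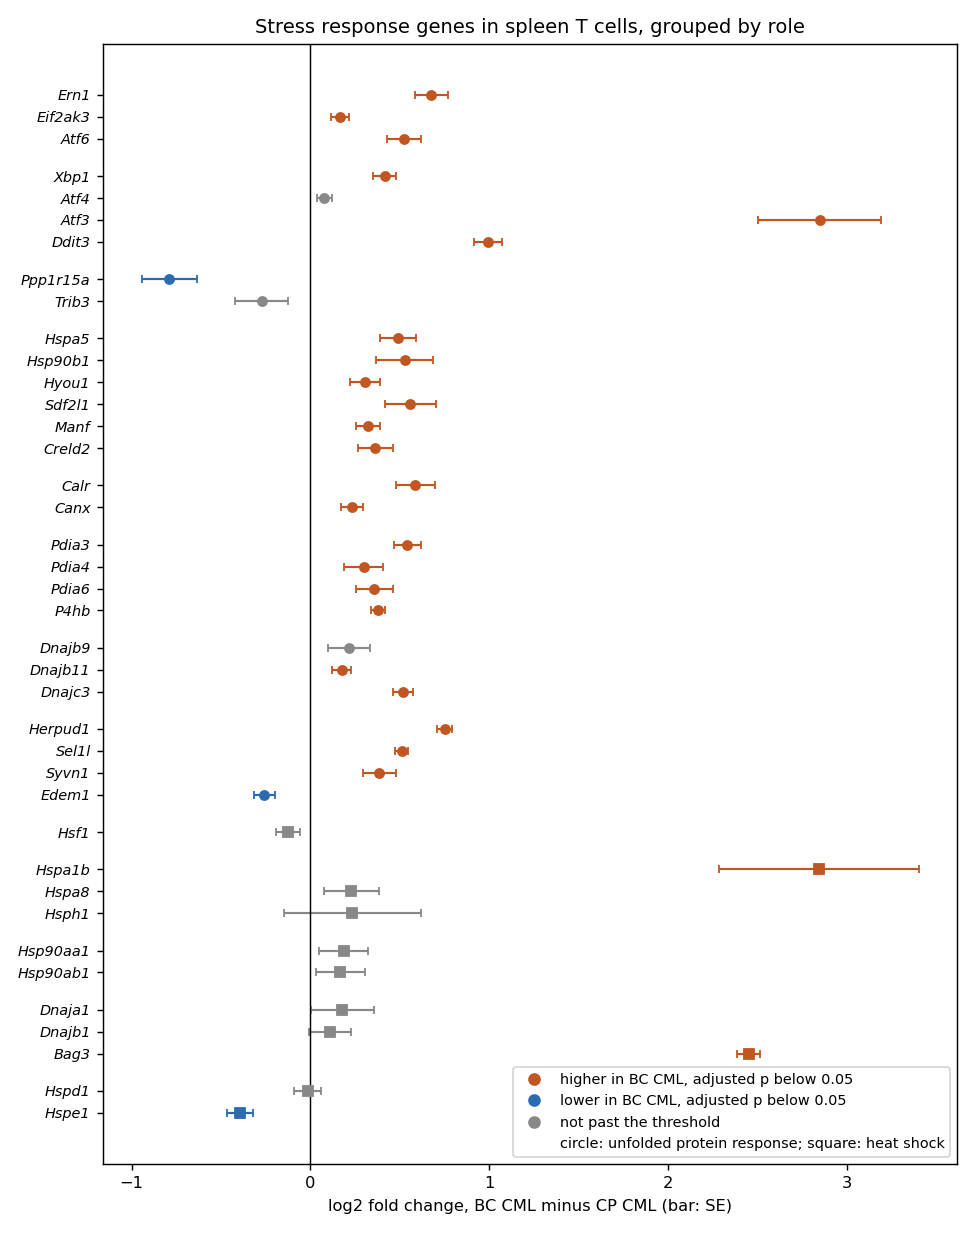
Log2 fold change (x axis, BC CML minus CP CML, with SE bars) of the 39 genes tested, grouped by role on the y axis. Circles are unfolded protein response genes, squares heat shock genes, and colours mark the call. Called higher are 23 of 28 circles and 2 of 11 squares, beside 32.6% of all genes.

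The sensors came first. Ern1, the IRE1 kinase and nuclease that splices Xbp1 mRNA, was between 13.4 and 17.7 CPM in CP CML (median 16.1) and between 21.4 and 33.5 CPM in BC CML (median 23.2), with a log2 fold change of 0.68 (SE 0.09, adjusted p = 5.28e-06). Every BC CML mouse lay above every CP CML mouse. Atf6, the membrane-bound factor that is cut in the Golgi, had a median of 40.5 CPM (31.4 to 48.9) in CP CML and 57.2 CPM (47.1 to 64.5) in BC CML. It rose by a log2 of 0.52 (SE 0.09, adjusted p = 0.000138), and 5 of 6 BC CML mice lay above all CP CML mice. Eif2ak3, which encodes PERK, the kinase that slows translation, moved least among the sensors, from a median of 56.8 CPM (52.1 to 58.9) to 63.3 CPM (56.8 to 71.4). That was a log2 fold change of 0.17 (SE 0.05, adjusted p = 0.00702), with the groups overlapping.

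Downstream of the sensors, Xbp1 mRNA was between 45.3 and 53.5 CPM in CP CML (median 49.3) and between 55.8 and 75.5 CPM in BC CML (median 67.8). The groups did not overlap, and the log2 fold change was 0.42 (SE 0.06, adjusted p = 2.24e-05). The counts are per gene and do not separate spliced from unspliced Xbp1. Ddit3, which encodes the pro-apoptotic factor CHOP, rose 1.99-fold in the mean, from a median of 16.0 CPM (13.7 to 20.7) to 31.8 CPM (30.5 to 36.8). The log2 fold change was 0.99 (SE 0.08, adjusted p = 4.93e-09) and the groups did not overlap. Ddit3 shares 68 bases with Mars on the opposite strand, whose log2 fold change was -0.01. Atf4, the factor that sits above Ddit3 in the PERK branch and is controlled largely by translation, did not pass the test, with a median of 157 CPM (143 to 168) in CP CML and 166 CPM (156 to 173) in BC CML and a log2 fold change of 0.08 (SE 0.04, adjusted p = 0.126).

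Atf3, a stress-induced repressor and activator downstream of ATF4, was rare. It had 3 to 10 reads in each CP CML library and 22 to 65 reads in each BC CML library, or 0.150 to 0.546 CPM (median 0.224) and 1.15 to 4.05 CPM (median 1.79). The groups did not overlap, and the log2 fold change was 2.85 (SE 0.34, adjusted p = 1.11e-06). Atf3 and Hspa1b would not have passed the filter on the CP CML libraries alone, so they entered the test through the group in which they were high. Without Atf3 the ER arm stood at 22 higher and 2 lower of 27, with a median of 0.38.

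The feedback genes of the PERK branch went the other way or did not pass the test. Ppp1r15a, which encodes GADD34, the subunit that brings a phosphatase to eIF2α and so restores translation, was between 90.3 and 163 CPM in CP CML (median 135) and between 54.0 and 93.0 CPM in BC CML (median 78.3). All but 1 of the 6 BC CML mice lay below all CP CML mice, and the log2 fold change was -0.79 (SE 0.15, adjusted p = 0.000406). Trib3, a pseudokinase induced by ATF4 and CHOP, was low, at a median of 2.6 CPM (2.15 to 3.52) and 2.28 CPM (1.68 to 2.47), with a log2 fold change of -0.27 (SE 0.15, adjusted p = 0.117). Ppp1r15a is also an immediate early gene, and among 14 immediate early genes that respond to cell handling, 2 were higher and 5 lower in BC CML, with summed levels of 2116 to 2898 CPM in CP CML and 1859 to 2549 CPM in BC CML. Their part in the fall of Ppp1r15a was not tested.

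All 6 chaperones and chaperone helpers of the ER lumen rose, and in each of them some mice of the groups overlapped. Hspa5, which encodes BiP, the HSP70 of the ER and the brake on all the sensors, had a median of 509 CPM (427 to 629) in CP CML and 740 CPM (596 to 874) in BC CML. It rose by a log2 of 0.49 (SE 0.10, adjusted p = 0.000514), with 5 of 6 BC CML mice above all CP CML mice. Hsp90b1, the ER HSP90 known as GRP94, had a median of 460 CPM (317 to 661) and 678 CPM (546 to 874), with a log2 fold change of 0.53 (SE 0.16, adjusted p = 0.0097). The CP CML range covered the lower 3 of the 6 BC CML mice. Hsp90b1 shares 3966 bases with 1810014B01Rik on the opposite strand, whose level was 6.04 CPM and whose log2 fold change was -0.22. Sdf2l1, a partner of BiP and its J-domain helpers, rose from a median of 14.2 to 20.4 CPM, with a log2 fold change of 0.56 (SE 0.14, adjusted p = 0.00252). The nucleotide exchange factor Hyou1 rose by a log2 of 0.31, the secreted protective factor Manf by 0.32 and Creld2, a secreted protein induced by ER stress, by 0.36 (adjusted p = 0.00427, 0.000477 and 0.003).

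The lectin chaperones of the glycoprotein folding cycle differed in size of change. Calr, soluble calreticulin, was between 373 and 634 CPM in CP CML (median 496) and between 640 and 870 CPM in BC CML (median 760), with no overlap and a log2 fold change of 0.59 (SE 0.11, adjusted p = 0.000208). Canx, its membrane-bound counterpart calnexin, rose from a median of 358 CPM (324 to 409) to 429 CPM (386 to 496), a log2 fold change of 0.23 (SE 0.06, adjusted p = 0.00247), with 4 of 6 BC CML mice above all CP CML mice. Pdia3, the disulfide isomerase that works with both, was between 336 and 475 CPM in CP CML (median 389) and between 506 and 634 CPM in BC CML (median 593). The groups did not overlap, and the log2 fold change was 0.54 (SE 0.08, adjusted p = 7.99e-06).

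The other disulfide isomerases rose by less. P4hb, the founding member of the family and also a subunit of prolyl hydroxylase, was the steadiest, at 196 to 217 CPM in CP CML (median 208) and 246 to 294 CPM in BC CML (median 269). Again without overlap, the log2 fold change was 0.38 (SE 0.04, adjusted p = 2.04e-07). Pdia6, which binds IRE1, had a log2 fold change of 0.36 (SE 0.10, adjusted p = 0.00673), and Pdia4 0.30 (SE 0.11, adjusted p = 0.0237), both with overlapping groups. The call of Pdia4 rested on BC CML replicate 2. Without that mouse the log2 fold change was 0.25 and the adjusted p = 0.0624.

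Among the J-domain proteins that hand clients to BiP, Dnajc3, an inhibitor of eIF2α kinases also known as P58IPK, was between 222 and 272 CPM in CP CML (median 236) and between 314 and 394 CPM in BC CML (median 330). All BC CML mice lay above all CP CML mice, with a log2 fold change of 0.52 (SE 0.06, adjusted p = 2.56e-07). Dnajb11 had a log2 fold change of 0.18 (SE 0.05, adjusted p = 0.00657), and only 2 of the 6 BC CML mice lay above all CP CML mice. Dnajb9, a target of XBP1 that helps BiP bind IRE1, had medians of 40.5 CPM (35.7 to 53.7) and 50.5 CPM (36.6 to 61.2) and did not pass the test, with a log2 fold change of 0.22 (SE 0.12, adjusted p = 0.114). BC CML replicates 3, 4, 5 and 6, at 51.8, 49.1, 36.6 and 40.6 CPM, lay inside the CP CML range, and 2 of the 6 BC CML mice lay above it. Without BC CML replicate 5 the log2 fold change was 0.29, and without CP CML replicate 6 it was 0.28, and both passed the threshold.

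ER-associated degradation held the 2 lowest adjusted p-values of the ER arm. Herpud1, which assembles the degradation complex and is a direct target of the response, was 55.0 to 64.6 CPM in CP CML (median 63.1) and 100.2 to 106 CPM in BC CML (median 102). Its coefficient of variation in BC CML was 2.64%, the groups lay far apart, and the log2 fold change was 0.75 (SE 0.04, adjusted p = 4.78e-11). Sel1l, the adaptor of the ubiquitin ligase, was 121 to 134 CPM (median 131) and 173 to 194 CPM (median 185), again without overlap, with a log2 fold change of 0.51 (SE 0.04, adjusted p = 1.28e-09). Syvn1, the ligase HRD1 itself, rose by a log2 of 0.39 (SE 0.09, adjusted p = 0.00176) with overlap, and shares 89 bases with Mrpl49 on the opposite strand, whose log2 fold change was 0.22. Edem1, which takes trimmed glycoproteins to degradation, fell instead, from a median of 348 CPM (289 to 385) to 286 CPM (265 to 308). The log2 fold change was -0.26 (SE 0.06, adjusted p = 0.000974), with 3 of 6 BC CML mice below all CP CML mice.

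**Figure D2:**
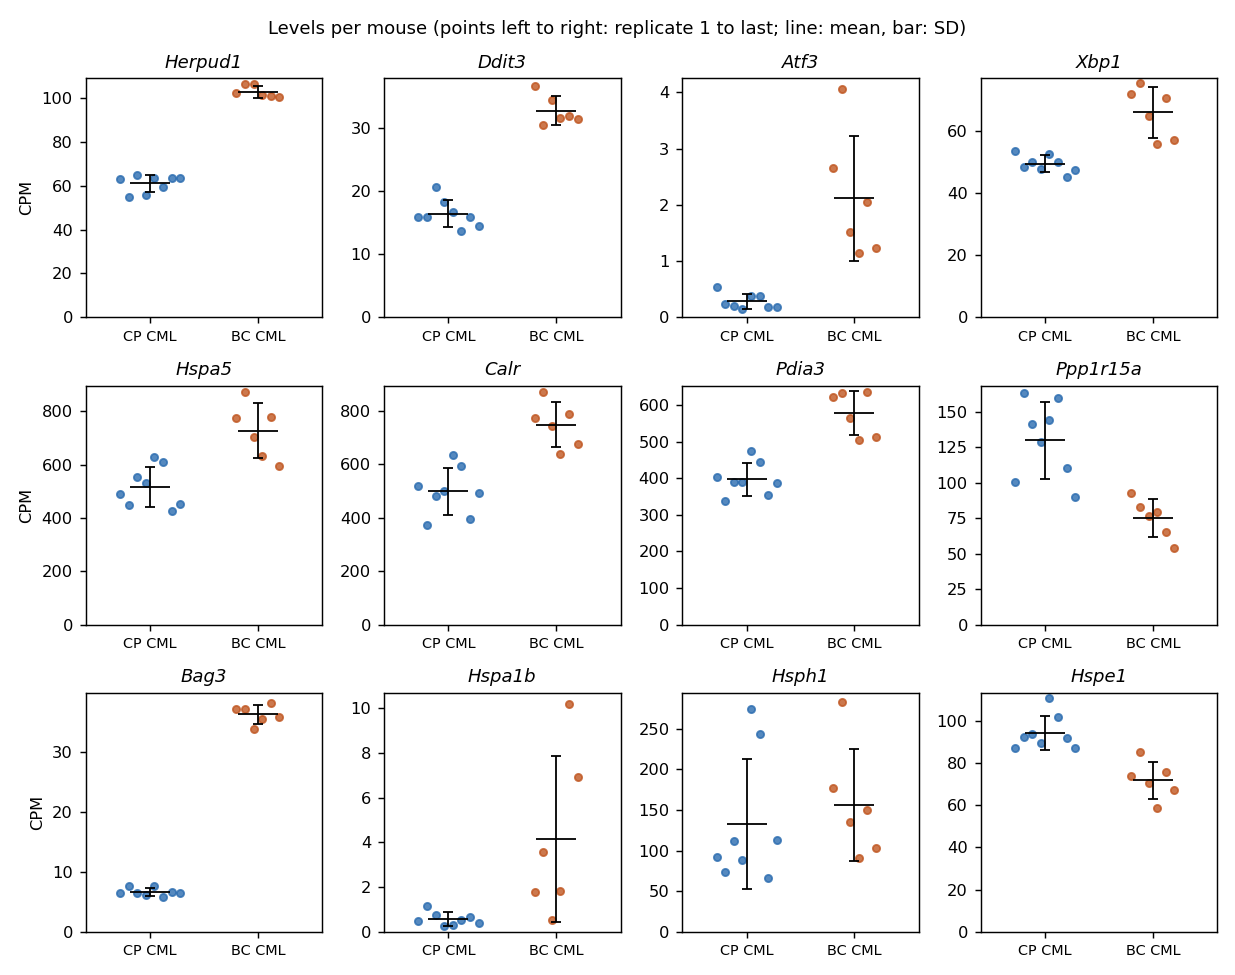
CPM on the y axis for 12 of the genes, 1 point per mouse, 8 CP CML and 6 BC CML, with the mean (line) and SD (bar). Herpud1, Ddit3, Atf3, Xbp1, Calr, Pdia3, Bag3 and Hspe1 show no overlap between groups, while Hsph1 spans 66.1 to 275 CPM in CP CML and 90.5 to 283 CPM in BC CML.

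In the heat shock arm, Hsf1, the master regulator, which is controlled by trimerisation of its protein, had medians of 52.6 CPM (51.3 to 64.3) in CP CML and 51.4 CPM (44.6 to 56.4) in BC CML, with a log2 fold change of -0.13 (SE 0.07, adjusted p = 0.11). Without BC CML replicate 1 it was -0.16 and passed the threshold (adjusted p = 0.0486). The constitutive cytosolic chaperones Hspa8 and Hsp90ab1 did not pass the test. Hspa8, the constitutive HSP70, had medians of 1256 CPM (1065 to 2071) and 1676 CPM (1277 to 1988), with a log2 fold change of 0.23 (SE 0.15, adjusted p = 0.20). Hsp90ab1, the constitutive HSP90, had medians of 1646 CPM (1562 to 2464) and 1948 CPM (1525 to 2795), with a log2 fold change of 0.17 (SE 0.14, adjusted p = 0.302). In both genes the ranges of the groups overlapped widely.

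The stress-inducible HSP90 gene Hsp90aa1 had medians of 359 CPM (332 to 513) and 416 CPM (338 to 596), a log2 fold change of 0.19 (SE 0.14, adjusted p = 0.243). Hsph1, the inducible HSP110 that recharges HSP70, varied about 4-fold among CP CML mice, at 4.16 times from lowest to highest, and 3.13 times among BC CML mice. Its log2 fold change of 0.24 had an SE of 0.38 (adjusted p = 0.608), so a change as large as the median of the ER arm was not detectable at this spread. Dnaja1 and Dnajb1, J-domain partners of HSP70, had log2 fold changes of 0.18 (SE 0.18, adjusted p = 0.386) and 0.11 (SE 0.12, adjusted p = 0.421).

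Bag3 stood apart from the rest of the arm. It encodes a nucleotide exchange factor of HSP70 that directs clients to autophagy and is a well-known HSF1 target. It was 5.78 to 7.64 CPM in CP CML (median 6.49) and 33.8 to 38.2 CPM in BC CML (median 36.4), a mean 5.47 times as high. The lowest BC CML mouse was at more than 4 times the level of the highest CP CML mouse, and the log2 fold change was 2.45 (SE 0.06, adjusted p = 2.61e-15). The coefficient of variation was 9.91% in CP CML and 4.28% in BC CML. Over the leave-one-out fits its log2 fold change lay between 2.43 and 2.48. No seed match for miR-142 was found in its longest 3′UTR, and none of the searched elements in its promoter window.

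The inducible HSP70 genes Hspa1a and Hspa1b lie close together on chromosome 17 and are near-identical copies, so the reads of each are uncertain. Hspa1b was 0.251 to 1.16 CPM in CP CML (median 0.516) and 0.525 to 10.2 CPM in BC CML (median 2.69), with 5 of 6 BC CML mice above all CP CML mice and a log2 fold change of 2.84 (SE 0.56, adjusted p = 0.000392). BC CML replicates 5 and 6 were the highest, at 188 and 135 reads, and BC CML replicate 3 had 10. Hspa1a had 0 to 5 reads in each CP CML library and 10 to 64 in each BC CML library, with no overlap, beside 36.9% of all genes tested. An exact two-sided permutation test over 3003 splits gave p = 0.000333, the smallest these groups can give. Full separation all but fixes that value, so it adds nothing to the lack of overlap. With the reads of both genes summed, the log2 fold change was 3.00 (SE 0.53, adjusted p = 0.000144).

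Of the mitochondrial chaperonin genes, 1 fell and 1 did not pass the test. Hspd1, which encodes HSP60, had medians of 214 CPM (196 to 274) and 225 CPM (193 to 250), a log2 fold change of -0.01 (SE 0.08, adjusted p = 0.876). Hspe1, its co-chaperonin HSP10, was 87.1 to 111 CPM in CP CML (median 92.2) and 58.5 to 85.0 CPM in BC CML (median 72.2). All BC CML mice lay below all CP CML mice, and the log2 fold change was -0.39 (SE 0.07, adjusted p = 0.000134). The difference between Hspd1 and Hspe1 was not tested.

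Levels were compared between genes as RPKM, which is CPM divided by the deposited gene length in kilobases. In CP CML the highest was Hsp90ab1 at 716 ± 126 RPKM (SD, n = 8), then Hspa8 at 444 ± 113 and Calr at 258 ± 45.6. Hspa5 at 198 ± 28.9, Hsp90b1 at 171 ± 42.1, Pdia3 at 151 ± 17.1 and Hsp90aa1 at 130 ± 22.3 RPKM followed, each within 1 SD of a neighbour. The first 7 places held the same genes in BC CML, with Calr at 387 ± 42.7 RPKM (SD, n = 6). The lowest were Trib3 at 1.30, Hspa1b at 0.204, Atf3 at 0.133 and Hspa1a at 0.0491 RPKM in CP CML. The sensors were low too, with Ern1 at 3.44 ± 0.321, Atf6 at 5.33 ± 0.818 and Eif2ak3 at 10.7 ± 0.508 RPKM. Between the groups Ddit3 moved from place 28 to 19 of 40 and Ppp1r15a from 17 to 26, so that the level of Ddit3 per length lay under that of Ppp1r15a in CP CML (19.0 and 44.3 RPKM) and over it in BC CML (37.8 and 25.7 RPKM).

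**Figure D3:**
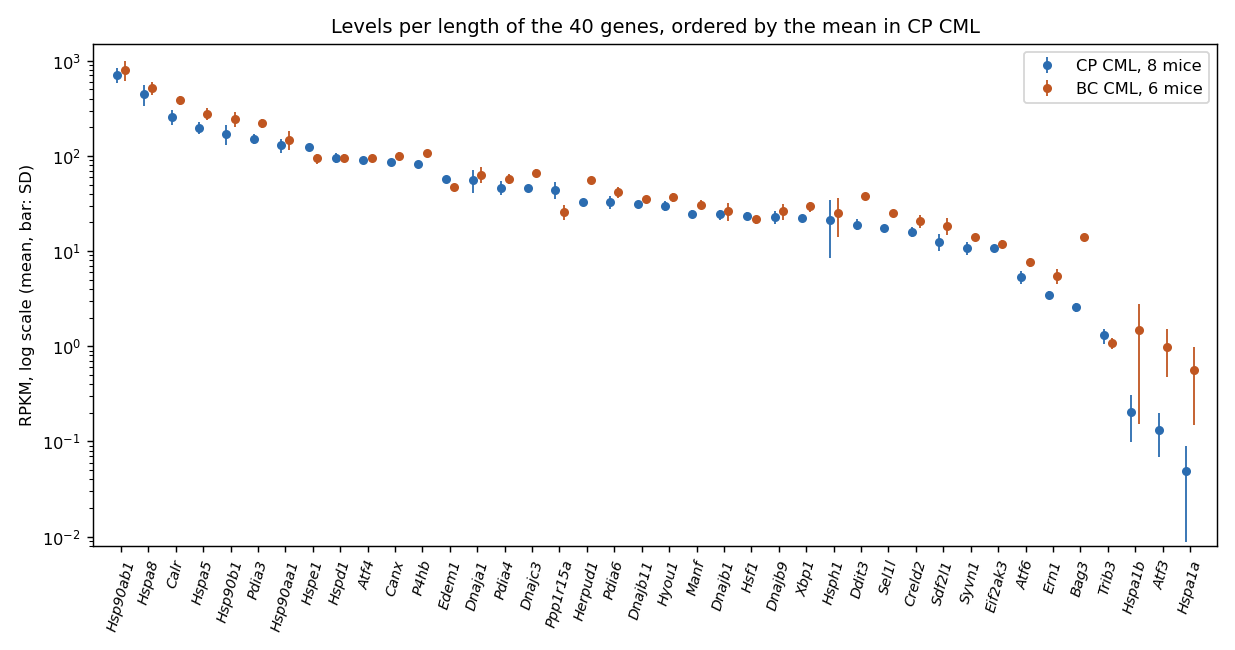
Mean RPKM (y axis, log scale, bars SD) of the 40 genes in 8 CP CML and 6 BC CML mice, ordered by the CP CML mean. Levels run from 716 RPKM for Hsp90ab1 to 0.0491 RPKM for Hspa1a in CP CML, and Bag3 stands out at 2.56 RPKM in CP CML and 14.01 RPKM in BC CML.

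Many genes of both arms were highest in the same mice of a group. CP CML replicates 5 and 6 were the highest pair of the 8 CP CML mice in 24 of the 39 genes, 15 of 28 in the ER arm and 9 of 11 in the heat shock arm, beside 14.8% of all genes tested. In Hsph1 they had 275 and 243 CPM while the other 6 had 66.1 to 113 CPM, and in Hspa8 2071 and 1821 CPM beside 1065 to 1391. In the ER arm Hsp90b1 followed them, at 661 and 596 CPM beside 317 to 474. The sensors Atf6 and Eif2ak3 went the other way and were the 2 of 39 genes in which these mice were the lowest pair. The sensor Ern1 was not among them, and the share over all genes was not counted. Atf6 had 31.4 and 33.0 CPM in replicates 5 and 6 and 35.7 to 48.9 CPM in the other 6, and Eif2ak3 52.3 and 52.1 CPM beside 55.5 to 58.9. Movement of the genes together was not tested. In BC CML, replicate 2 was the highest mouse in 25 of the 39 genes, beside 17.4% of all genes. It had the smallest library of its group. These mice were picked out by their values in these same genes, which raises their shares over the 39 genes beside those over all genes.

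The median coefficient of variation of the heat shock genes was 17.1% in CP CML and 19.1% in BC CML, beside 8.89% and 9.31% over all genes. For the ER arm it was 12.3% and 10.9%. Examples outside this pattern were Bag3, where CP CML replicate 5 was highest and replicate 6 lowest, and Hspa1b, Atf6 and Trib3, in which BC CML replicates 5 and 6 were the highest pair. Dnajb1 followed the pattern in CP CML, while in BC CML its highest pair was replicates 5 and 6. Summed immediate early genes were also highest in CP CML replicates 6 and 5, at 2898 and 2754 CPM, and BC CML replicate 2 was second of its group at 2453 CPM. Summed activation and effector genes were highest in CP CML replicate 5 (1201 CPM, group range 979 to 1201) and in BC CML replicate 2 (2226 CPM, group range 1617 to 2226). Summed T cell identity genes ranked 1 and 3 of the 8 CP CML mice in replicates 5 and 6, at 5063 and 4937 CPM. Their part in the pattern was not tested.

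Leaving out these mice in turn, the ER arm had 25 of 28 genes called without CP CML replicate 5, 26 without CP CML replicate 6 and 24 without BC CML replicate 2. The heat shock arm had 4, 3 and 3 of 11. The additional call was Hspa8, whose log2 fold change without CP CML replicate 5 was 0.33 (adjusted p = 0.0316). The direction of Hsph1 rested on BC CML replicate 2, without which its log2 fold change was -0.02.

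**Figure D4:**
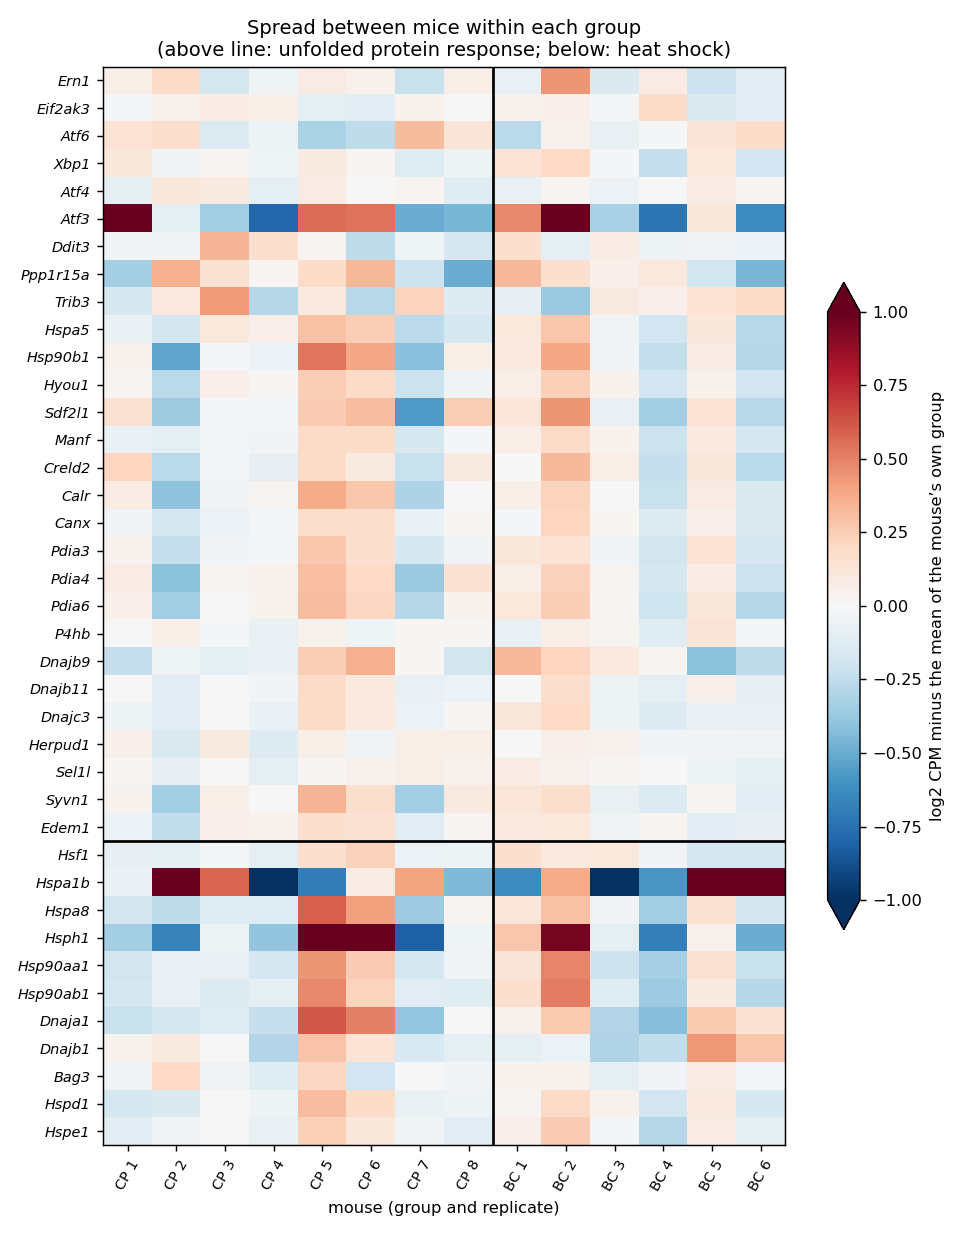
Log2 CPM of 39 genes (rows) in 14 mice (columns) minus the mean of the mouse's own group, red for above and blue for below, with colours capped at 1 in either direction. CP CML replicates 5 and 6 and BC CML replicate 2 are red over most of the genes, and Herpud1 and Sel1l are pale throughout.

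The sequence features were set beside the changes as a description. All 8 genes with the ER stress element (Hspa5, Hsp90b1, Creld2, Calr, Canx, Pdia6, Dnajc3 and Syvn1) were higher in BC CML, with a median log2 fold change of 0.44. All 8 belong to the ER arm, in which 12 of the 17 genes with a window and without the element were also higher and 2 lower, with a median of 0.38. Without Atf3 these were 11 of 16 higher and 2 lower, with a median of 0.34. Of the other 9 tested genes with the element, 1 was higher and 2 were lower, with a median of -0.09. Of the 12 genes with a seed match for miR-142, 10 were higher and 0 lower, with a median of 0.50, and without Hspa1b 9 of 11 were higher, with a median of 0.49. Of the 27 tested genes without one, 15 were higher and 3 lower, with a median of 0.24. These sets differ in their arms. Within the ER arm, 9 of 9 genes with a match and 14 of 19 without were higher, and in the heat shock arm 1 of 3 and 1 of 8. Without Atf3 and Hspa1b, which passed the filter only through BC CML, these were 13 of 18 in the ER genes without a match and 0 of 2 in the heat shock genes with one. Of all tested genes with a match, 41.4% were higher and 27.2% lower, and of those without, 30% and 35.3%. Among the 4 with an 8mer, Canx, Pdia3 and Herpud1 rose, while Dnaja1 did not pass the test. The matches of Dnaja1, Ern1 and Hspa5 lie in longer 3′UTRs, outside the bounds of these genes as deposited with the counts.

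The rest of the pathway was counted from 10 further lists with 160 tested genes, of which 58 were higher and 43 lower (63.1% called, beside 65.2% of all genes), with a median log2 fold change of 0.04. Transcriptional targets of ATF4 and CHOP had the highest median of these lists, 0.40, with 9 of 16 higher and 3 lower. Asns, which makes asparagine and is a classic ATF4 target, rose from a mean of 1.27 to 5.90 CPM, a log2 fold change of 2.22 (SE 0.16, adjusted p = 1.2e-09) with no overlap. Ddit4, an inhibitor of mTORC1, rose from 124 to 237 CPM (log2 fold change 0.94, adjusted p = 0.00561), while the serine enzyme Shmt2 had a log2 fold change of -0.18 (adjusted p = 0.0386). The pro-apoptotic Bcl2l11, a CHOP target, had 120 and 127 CPM (adjusted p = 0.565).

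Near the sensors, the list of regulators around ATF6 and IRE1 had 8 of 15 higher and 2 lower. Wfs1, an ER membrane protein induced by stress, rose by a log2 of 0.80 (adjusted p = 4.23e-06), the protease Mbtps1 that cuts ATF6 by 0.21 (adjusted p = 0.000154) and the survival factor Tmbim6 by 0.15 (adjusted p = 0.00361). Map3k5, the kinase ASK1, which IRE1 engages, fell by 0.91 (adjusted p = 8.73e-09). Rtcb, the ligase that joins spliced Xbp1, fell by 0.31 (adjusted p = 4.29e-06). Among 7 eIF2α kinases and phosphatase partners, 3 were higher and 2 lower, with Eif2ak1 down by 0.26 (adjusted p = 3.84e-05) and Ppp1r15b, the constitutive relative of Ppp1r15a, at a log2 fold change of -0.16 (adjusted p = 0.00127). The subunit Eif2s1, which is eIF2α itself, was at 115 CPM in both groups (adjusted p = 0.948). Eif2a, an unrelated initiation factor in the same list, had 0.64 (adjusted p = 2.15e-09).

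The other machinery of the ER did not move in 1 direction. In oxidative folding 5 of 12 were higher and 4 lower, with the oxidase Ero1lb at a log2 fold change of 0.51 (adjusted p = 1.64e-06), the glucosyltransferase Uggt1 at 0.34 (adjusted p = 4.25e-07), the thioredoxin-related Tmx3 at 0.28 (adjusted p = 9.21e-05), the cyclophilin Ppib at -0.27 (adjusted p = 2.2e-05) and Erp29 at -0.42 (adjusted p = 1.2e-06). In the remaining degradation genes 6 of 19 were higher and 4 lower. Of these the ubiquitin-conjugating enzyme Ube2g2 rose by 0.63 (adjusted p = 1.65e-08), the extraction ATPase Vcp by 0.19 (adjusted p = 0.000167) and Ube2j1 fell by 0.19 (adjusted p = 0.000302), while the lectin Os9 was at 0.01 (adjusted p = 0.766). In the translocon, signal peptidase and glycosylation list 8 of 27 were higher and 10 lower. Rpn1, a subunit of the oligosaccharyltransferase, had a log2 fold change of 0.53 (adjusted p = 4.01e-08), and Rpn2, its partner, -0.10 (adjusted p = 0.0157). The signal peptidase subunit Sec11a fell by 0.40 (adjusted p = 4.26e-07). Ssr3, of the translocon-associated complex, rose by 0.20 (adjusted p = 6.33e-05), and the catalytic subunit Stt3b was at -0.02 (adjusted p = 0.762).

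In the cytosol, 12 of 22 other heat shock factor and HSP70 genes were higher and 4 lower. Hspa4l, an HSP110 relative of Hsph1, rose from a mean of 26.5 to 76.0 CPM, a log2 fold change of 1.52 (SE 0.12, adjusted p = 2.91e-08) with no overlap, and Hspa4 rose by 0.17 (adjusted p = 0.000861). The J-domain genes Dnajb5 and Dnajc7 fell by 0.71 (adjusted p = 4.6e-07) and 0.15 (adjusted p = 0.00753), and Dnaja2 was at 0.05 (adjusted p = 0.25). Of 14 HSP90 co-chaperones, 2 were higher and 2 lower. Fkbp5, also a target of glucocorticoids, rose from 210 to 342 CPM (log2 fold change 0.70, adjusted p = 0.0103), Unc45a fell by 0.61 (adjusted p = 1.67e-07), Cdc37, which brings kinases to HSP90, rose by 0.09 (adjusted p = 0.0262), and Stip1, which bridges HSP70 and HSP90, was at 0.22 (SE 0.22, adjusted p = 0.408).

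The chaperonin and mitochondrial lists had 64.3% and 57.1% of their genes called, close to the 65.2% of all genes. Of 14 genes of the TRiC chaperonin and prefoldin, 3 were higher and 6 lower, with Cct2 at a log2 fold change of -0.19 (adjusted p = 0.000512), Cct5 at 0.13 (adjusted p = 0.0134), Cct4 at 0.11 (adjusted p = 0.0164) and Pfdn5 at -0.36 (adjusted p = 3.28e-05). Of 14 mitochondrial proteostasis genes 2 were higher and 6 lower. Hspa9, the mitochondrial HSP70, was at 280 and 288 CPM (adjusted p = 0.493), the mitochondrial HSP90 Trap1 was at 107 and 111 CPM (adjusted p = 0.403), the protease Yme1l1 fell by 0.15 (adjusted p = 0.000297) and the disaggregase Clpb rose by 0.55 (adjusted p = 3.94e-08).

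**Figure D5:**
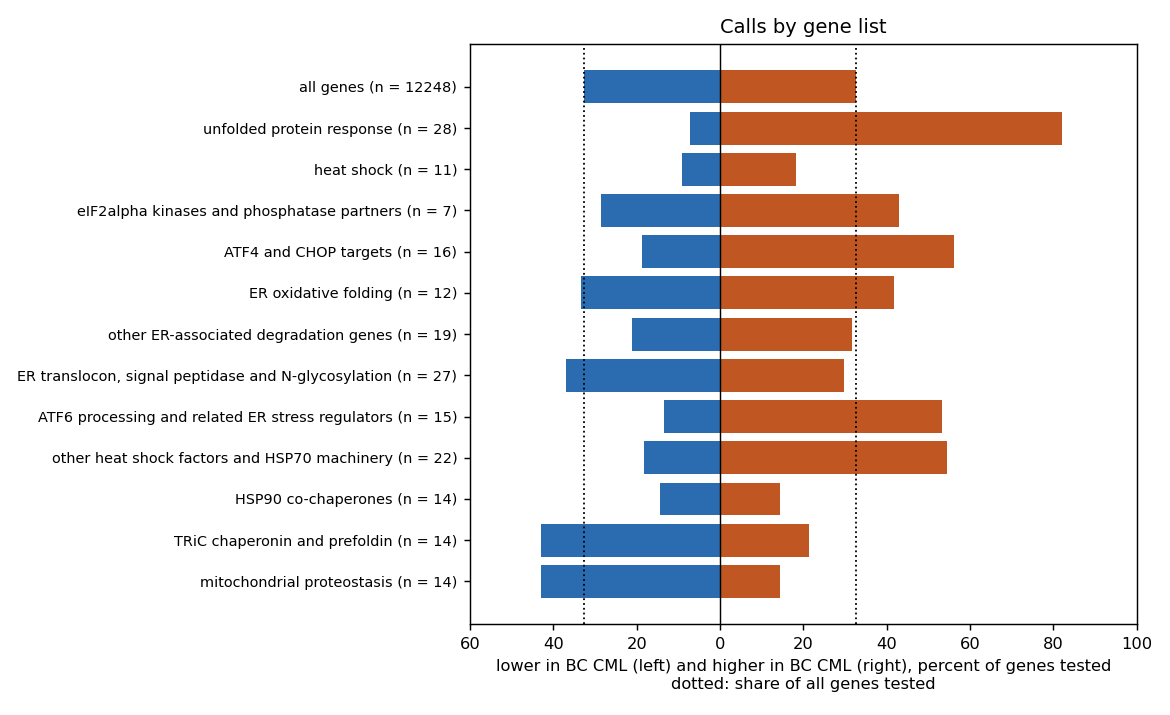
Percent of tested genes called lower (left) and higher (right) in BC CML for all genes, both arms and 10 further pathway lists, with dotted lines at the shares of all genes (32.7% lower, 32.6% higher). The unfolded protein response has the longest bar to the right, with 23 of 28 genes.

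Markers of cells that are rich in these genes were set beside the results. Plasma cells have a large ER, and their markers were low and lower in BC CML. The summed level of 8 markers was 70.4 to 141.6 CPM in CP CML and 34.5 to 50.6 CPM in BC CML, with 0 higher and 5 lower of 7 tested. Jchain, which links secreted antibodies, was at 26.0 and 2.81 CPM, and Tnfrsf17 was near 0 in both groups, at a mean of 0.0708 CPM in CP CML and 0 in BC CML, and was not tested. Over all mice the most abundant of these markers were Irf4 and Prdm1, which T cells also express, at 33.5 and 23.1 CPM and at 21.1 and 11.5 CPM. Of the 11 B cell genes, 9 were higher, among them Cd22 (31.1 and 75.7 CPM) and Ms4a1 (17.4 and 54.1 CPM), while Cd79b did not pass the test (adjusted p = 0.0753). They were joined by 14 of the 15 neutrophil and monocyte genes, led by S100a9 (67.5 and 284 CPM), Ngp and S100a8. Summed levels of 8 basophil and mast cell genes were 5.57 to 13.8 CPM in CP CML and 19.7 to 53.8 CPM in BC CML, with 2 of 6 tested genes higher. Kit, a receptor of stem and mast cells, had 3.77 and 25.4 CPM, and was most of that sum in BC CML. Cpa3 had 1.05 and 3.31 CPM (adjusted p = 0.0194), while Mcpt8 did not pass the test (adjusted p = 0.662). Those of 10 erythroid and megakaryocyte genes were 21.1 to 68.4 and 46.1 to 75.2 CPM, with 2 higher and 1 lower of 6 tested, the lower gene being Itga2b (4.38 and 2.76 CPM, adjusted p = 0.00515). Hbb-bs, Hba-a2 and Alas2, the most abundant over all mice, did not pass the test (adjusted p = 0.199, 0.208 and 0.125). Among T cell states, Tcf7, a factor of naive T cells, and Il7r, a survival receptor of resting T cells, were lower without overlap (1971 and 1239 CPM, and 1107 and 552 CPM). Of 16 activation and effector genes, 11 were higher, among them Nkg7 (137 and 370 CPM), Eomes (77.6 and 257 CPM) and Cd44 (170 and 198 CPM), and 2 were lower, Icos (127 and 73.3 CPM) and Prf1 (54.8 and 48.4 CPM). The part of these cells and states in the rise of the ER genes was not tested.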

How the data were processed

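RNA-seq was made from sorted spleen T cells of 8 CP CML and 6 BC CML mice. The authors made the libraries with a polyA-selecting kit, read 101 bases from each end, trimmed with Trimmomatic and FASTP, aligned to mm10 with STAR and deposited raw counts per gene from HTSeq-count, with gene lengths. The submitters' processing notes list STAR 2.6.0 and HTSeq 0.11.1. The annotation and strand setting are not given in the sources used here, and the placing of reads between overlapping or near-identical genes was not checked.

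The deposited counts were analysed in R 4.3.3 with edgeR 4.0.16: filterByExpr, TMM factors, and the quasi-likelihood test with robust estimation over 12248 genes, with Benjamini-Hochberg adjustment at 0.05 and no covariate. CPM and RPKM use TMM-scaled library sizes. SE was taken from the log2 fold change and the F statistic. The fit was also run on simulated counts with known changes, and the outcome of that run is not reported here. Libraries of a group differed by a chi-square of at least 3.09 per degree of freedom, so none was a repeat, and p-values measure the spread between these mice.

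All 40 genes are named. From each further list the 3 genes with the highest level were named, with the largest rise and fall that passed the test without overlap, and most of the 3 most abundant markers of each list. The count over the naive T cell list is not reported here. Cd3d, Cd3e, Cd4, Cd8b1, Cd247, Tnfrsf17, Icos, Prf1, Itga2b and the overlapping genes were chosen after their values were seen. The genes and lists were chosen with earlier results of these data known. Alternative settings were other scalings (RLE, library size alone, TMM without the listed genes), other filters on low counts, DESeq2 1.42.0 and the likelihood ratio test, summed Hspa1a and Hspa1b reads, a block for the replicate number, and fits without each mouse.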

Additional observations from a re-analysis of the deposited data

Results flagged for a closer look

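Across 82 sets of 4 to 10 values, made up of the genes and library sizes within each group, 1 held a value far from the others by the gap between the most extreme value and its neighbour. Chance gives about 1 in 20, or 4.1 of the 82 sets, so 1 is fewer than chance gives. It was the library of BC CML replicate 2, with 16145537 reads, where the next smallest of its group had 18319039. This is the mouse with the highest level in 25 of the 39 genes tested.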

How the results depend on the processing

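Over 8 other settings for each of the 39 genes, and the summed reads for Hspa1b, 309 of 313 fold changes kept their direction and side of the threshold, and no setting moved a count of calls by over 1.5 times. Over the fits that left out 1 mouse each, 536 of 546 did. In 33 genes this held in every such fit, and in 30 under all of these settings and fits together. The ER arm had between 24 and 26 genes called, the heat shock arm between 3 and 4, the further lists between 97 and 104 and all genes between 7721 and 7966. The sign of 2 genes that were not called turned. Hsph1, at 0.24 with an SE of 0.38 over all mice, lay between -0.018 (without BC CML replicate 2) and 0.47, and Hspd1 between -0.054 and 0.032, above 0 without CP CML replicate 5, CP CML replicate 6, BC CML replicate 4 or BC CML replicate 6.

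The replicate numbers are shared by the groups from 1 to 6 but belong to different mice, and the correlation of same-numbered mice lay between -0.27 and 0.36, so they do not pair the mice. With the replicate number as a block on those 12 mice, the ER arm had 21 of 28 genes called, and Hsp90b1 (0.48), Hyou1 (0.26), Pdia4 (0.27) and Dnajb11 (0.15) missed the threshold. The same mice without the block, a fit added after seeing the data, gave 25. The heat shock arm stayed at 3, the further lists had 95 and all genes 7280.

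Depth limits Hspa1a, Hspa1b and Atf3, which had few reads in CP CML.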
